A study of Homo sapiens with 9 samples.

Results

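LGR5 and 9 other Wnt pathway genes were followed across 3 groups of 3 mRNA libraries from SW1353, an established line from a human chondrosarcoma that serves as a model of chondrocytes. These 10 genes, among 19389 in the table, were found by their symbols: the R-spondin receptors LGR5 and LGR4, the ligands WNT5A and WNT5B, the receptor FZD7, the secreted antagonists DKK1, DKK3 and SFRP1, and the target genes AXIN2 and LEF1. The first group received PBSL, prepared from Protaetia brevitarsis seulensis beetle larvae, for 2 h before interleukin-1β (IL-1β), an inflammatory cytokine, was added at 20 ng/mL for 20 h. The second group received the same IL-1β alone, and the third was untreated. No group received PBSL alone, and the PBSL concentration behind the sequenced libraries is not stated. Nor do the labels say if libraries of 1 group stem from separate cultures, so the errors and p-values measure only the spread between these libraries.

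Wnt ligands are secreted lipid-modified proteins that bind Frizzled receptors, with LRP5 or LRP6 as co-receptors in the branch that stabilizes β-catenin. In that branch β-catenin enters the nucleus and joins TCF and LEF proteins at target genes, and AXIN2 is one of these targets and feeds back to degrade β-catenin. R-spondins bound by LGR4, LGR5 or LGR6 keep Frizzled receptors at the cell surface by removing the ubiquitin ligases ZNRF3 and RNF43, while SFRP and DKK proteins act outside the cell as antagonists. WNT5A is known mainly for β-catenin-independent signalling, through receptors such as ROR2. In cartilage, Wnt signals are known to influence chondrocyte differentiation and the production of matrix-degrading enzymes.

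The values are the authors' normalized expression values, whose unit is not stated. Their smallest steps fall with gene length, so they were taken as scaled for length and library depth, and each order of levels between genes and each share of a family below rests on that reading. They are not counts, and their read depth is unknown. They summed to between 523758 and 553196 per library, and 11924 genes reached 1 in at least 3 libraries and were tested. On the second principal component of these genes, PBSL plus IL-1β replicate 1 lay at 0.578, between the other 2 PBSL plus IL-1β libraries (16.8 and 18.2) and the IL-1β libraries (-12.4 to -11.5). Of 8 chondrocyte markers, SOX9, ACAN, COL11A1 and HAPLN1 were tested, while COL2A1, which encodes type II collagen, was never above 0.027 and COL9A1 never above 0.013. Among markers of other cell types, endothelial genes summed to at most 1.29 in any library. Adipocyte and muscle genes summed to at most 3.60 and lymphocyte genes to at most 8.57. The highest genes of these 2 lists were DES, at 0.502 to 3.33, and CD3D, at 4.49 to 7.49. Both were lowest with PBSL and IL-1β. Epithelial, macrophage and mesenchymal genes had higher sums, given further below.

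Which measurements chose the 10 genes is not recorded, but results of these libraries were known when they were picked. LGR5 had the lowest log2 difference of all genes tested between IL-1β and untreated cells. The values and log2 differences of the 10 genes are therefore given as a description, without p-values. The log2 differences were fitted by limma to log2(value + 1) over all 9 libraries, and a call needs an adjusted p (Benjamini-Hochberg, over all tested genes) under 0.05. DKK1 was below 1 in every library and was not tested, so 9 of the 10 entered the fit.

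Ordered by level per length in untreated cells, WNT5B came first (103 ± 5.42, mean ± SD, n = 3 here and below), followed by FZD7 (56.5 ± 2.99), LGR4 (33.8 ± 0.109), WNT5A (20.4 ± 1.26), LGR5 (12.2 ± 1.02) and SFRP1 (10.1 ± 0.338). LEF1 (3.99 ± 0.421) and AXIN2 (3.61 ± 0.526) came next and their libraries overlapped, and DKK3 (2.68 ± 0.22) and DKK1 (0.109 ± 0.0395) were the lowest. In both groups given IL-1β the first 4 places were the same. LGR5 stood in ninth place there, above DKK1 alone. DKK3 and SFRP1 overlapped in cells given IL-1β alone, and LEF1 and AXIN2 overlapped in cells given PBSL and IL-1β.

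**Figure D1:**
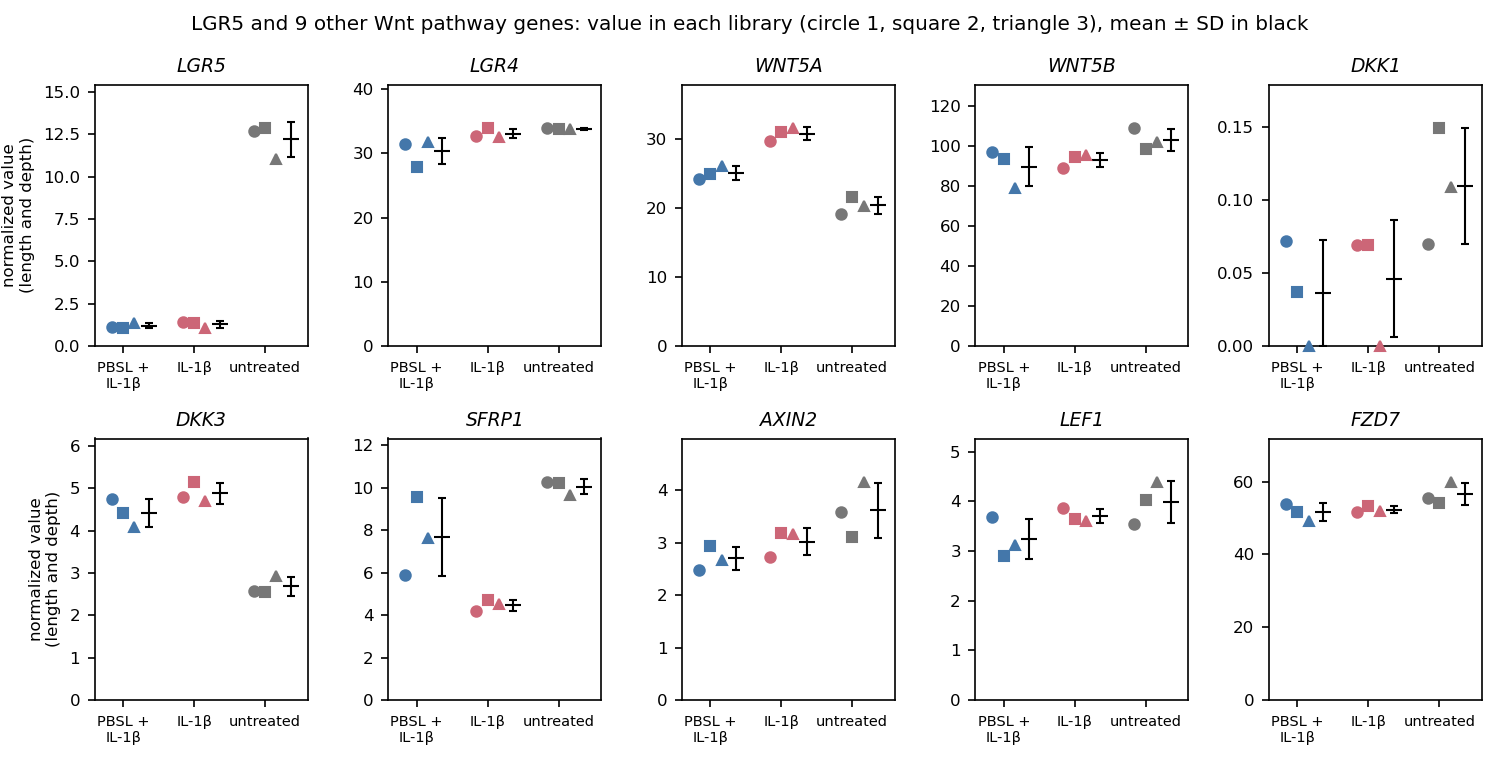
Normalized expression value (vertical axes, starting at 0, a different scale in each panel) of LGR5 and 9 other Wnt pathway genes in each library of the 3 groups. Symbols mark replicates 1, 2 and 3, and black bars give the mean ± SD. LGR5 lies between 1.05 and 1.44 in all libraries given IL-1β and between 11.0 and 12.9 in untreated libraries, whereas LGR4 lies between 27.9 and 33.9 throughout.

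LGR5 encodes a seven-pass membrane receptor for R-spondins and marks stem cells in several epithelia. It lies on the plus strand of chromosome 12 (hg38, 71439770 to 71586310, GENCODE 29). Its values were 1.15, 1.08 and 1.36 with PBSL and IL-1β and 1.44, 1.34 and 1.05 with IL-1β alone, against 12.7, 12.9 and 11.0 in untreated cells. All 6 libraries given IL-1β lay far below all untreated ones, and the PBSL and IL-1β-alone libraries overlapped. The group mean was 9.57-fold lower with IL-1β than in untreated cells, with a log2 difference of -2.54 (SE 0.09), and 10.2-fold lower with PBSL and IL-1β than in untreated cells, with a log2 difference of -2.59 (SE 0.09). Adding 1 shrinks this difference because LGR5 was near 1 after IL-1β, and with a pseudocount of 0.1 the 2 log2 differences were -3.17 and -3.25. PBSL plus IL-1β minus IL-1β alone gave -0.05 (SE 0.09). In bulk RNA, fewer cells expressing a gene and less RNA per cell cannot be told apart.

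TSPAN8, a tetraspanin gene on the other strand, overlaps LGR5. Whether the counting used strand is not stated, so reads in the overlap cannot be assigned with certainty. TSPAN8 stood at 0.616 to 0.66 with PBSL and IL-1β and at 0.263 to 0.956 with IL-1β alone, against 1.625 to 2.44 in untreated cells.

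LGR4, the related receptor for R-spondins with a wide tissue distribution, did not share that pattern. Its values were 31.4, 27.9 and 31.7 with PBSL and IL-1β and 32.7, 33.9 and 32.6 with IL-1β alone, against 33.9, 33.7 and 33.8 in untreated cells. The IL-1β and untreated libraries overlapped, with a log2 difference of -0.03 (SE 0.06), and the PBSL libraries were the lowest, with -0.12 (SE 0.06) against IL-1β alone. LGR6, the third receptor of the family, was at most 0.309 in any library. LGR5 thus made up 3.79% ± 0.288 of the summed LGR4, LGR5 and LGR6 values with PBSL and IL-1β and 3.71% ± 0.552 with IL-1β alone, against 26.4% ± 1.70 in untreated cells. The summed value was 31.6 ± 2.22 with PBSL and IL-1β and 34.3 ± 0.82 with IL-1β alone, against 46.2 ± 0.935 in untreated cells.

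WNT5A had the clearest difference among the ligands, in opposite directions for IL-1β and for PBSL. Its values were 24.2, 24.9 and 26.2 with PBSL and IL-1β and 29.8, 31.1 and 31.7 with IL-1β alone, against 19.2, 21.7 and 20.4 in untreated cells. The 3 groups did not overlap, and the PBSL libraries lay between the other 2 groups. The mean was 51.1% higher with IL-1β than in untreated cells, a log2 difference of 0.57 (SE 0.06). With PBSL added, the mean was 18.6% lower than with IL-1β alone (log2 difference -0.29, SE 0.06) and 23.0% higher than in untreated cells (log2 difference 0.29, SE 0.06). Without PBSL plus IL-1β replicate 1, PBSL plus IL-1β minus IL-1β alone was -0.26.

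WNT5B, its close paralogue, was the most abundant of the 10 genes and differed less. It had 97.1, 93.4 and 78.9 with PBSL and IL-1β and 89.0, 94.7 and 95.8 with IL-1β alone, against 109, 98.5 and 102 in untreated cells. PBSL plus IL-1β replicate 3 was the lowest library, and both groups given IL-1β lay wholly below untreated cells. The log2 difference was -0.15 (SE 0.07) for IL-1β minus untreated and -0.06 (SE 0.07) for PBSL plus IL-1β minus IL-1β alone. How reads shared between WNT5A and WNT5B were counted is not stated. FBXL14, on the other strand, overlaps WNT5B and stood at 3.66 to 3.93 with PBSL and IL-1β and at 3.42 to 3.64 with IL-1β alone, against 2.38 to 3.00 in untreated cells.

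Of 19 Wnt ligand genes, 6 reached 1 in any library, and WNT5B and WNT5A were the most abundant. WNT5B made up 63.9% ± 2.81 of the summed ligand values with PBSL and IL-1β and 62.8% ± 0.489 with IL-1β alone, against 70.8% ± 1.63 in untreated cells. The share of WNT5A was 18.0% ± 1.95 with PBSL and IL-1β and 20.8% ± 0.0995 with IL-1β alone, against 14.0% ± 1.28 in untreated cells. The summed value itself was 140.2 ± 9.28 with PBSL and IL-1β, 148 ± 4.67 with IL-1β alone and 146 ± 4.34 in untreated cells. All 3 groups overlapped in this sum.

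The 250 bases before each of 2 annotated WNT5A starts are shown because WNT5A was the 1 gene among those with the largest differences for which RefSeq promoter sequences were at hand, and its table value does not tell the starts apart. RefSeq entries on GRCh38.p14 matched 5 of the 10 genes. Both windows lie on the minus strand of chromosome 3, at chr3:55481399-55481648 for the downstream start and chr3:55487307-55487556 for the upstream start, and read 5′ to 3′ as follows.
WNT5A downstream start: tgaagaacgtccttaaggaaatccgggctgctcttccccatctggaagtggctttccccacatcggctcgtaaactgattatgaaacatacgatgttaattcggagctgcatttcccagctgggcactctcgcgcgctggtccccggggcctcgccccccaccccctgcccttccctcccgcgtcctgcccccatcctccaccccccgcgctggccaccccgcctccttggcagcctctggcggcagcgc
WNT5A upstream start: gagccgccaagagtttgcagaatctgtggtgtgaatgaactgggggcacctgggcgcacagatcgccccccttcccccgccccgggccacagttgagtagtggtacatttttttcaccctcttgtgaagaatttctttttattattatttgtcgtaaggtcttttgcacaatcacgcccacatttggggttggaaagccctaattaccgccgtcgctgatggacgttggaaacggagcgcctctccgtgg
No letters are in capitals because neither window, read on both strands, held the TCF/LEF motif CTTTGAT, the AP-1 motif TGANTCA or the κB consensus. These motifs occur in 2.26%, 6.57% and 9.96% of 35116 promoter windows of this length, in that order. Absence says only that these letters are not in these windows. The base content was 64.4% G and C before the downstream start and 52.8% before the upstream start.

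FZD7, a Frizzled receptor known from stem cells and tumours, was nearly flat. It had 54.0, 51.8 and 49.2 with PBSL and IL-1β and 51.7, 53.4 and 51.9 with IL-1β alone, against 55.5, 54.2 and 59.9 in untreated cells. Libraries given IL-1β lay below untreated ones by a small margin, with a log2 difference of -0.11 (SE 0.06), and PBSL plus IL-1β minus IL-1β alone was -0.02 (SE 0.06). Among 10 Frizzled genes, FZD7 made up 30.7% ± 0.745 of the summed value with PBSL and IL-1β and 30.9% ± 0.186 with IL-1β alone, against 32.6% ± 0.592 in untreated cells. FZD2 was about as abundant, at 29.9% ± 1.95, 33.6% ± 0.538 and 32.4% ± 0.746 in the same groups.

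The 3 secreted antagonists went different ways. SFRP1, which binds Wnt proteins outside the cell, had 5.88, 9.56 and 7.645 with PBSL and IL-1β and 4.20, 4.70 and 4.52 with IL-1β alone, against 10.3, 10.2 and 9.66 in untreated cells. The 3 groups did not overlap, and the PBSL libraries were spread over most of the gap between the other 2, with replicate 1 the lowest and replicate 2 close to untreated cells. The mean with IL-1β was 2.25-fold lower than in untreated cells (log2 difference -1.02, SE 0.12). With PBSL added it was 1.72-fold higher than with IL-1β alone (log2 difference 0.65, SE 0.12) and 1.31-fold lower than in untreated cells (log2 difference -0.37, SE 0.12). Leaving out PBSL plus IL-1β replicate 1 gave 0.81 (SE 0.09) against IL-1β alone and -0.21 (SE 0.09) against untreated cells.

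DKK3, a Dickkopf family protein whose role in Wnt signalling is less settled than that of DKK1, had 4.74, 4.42 and 4.08 with PBSL and IL-1β and 4.79, 5.14 and 4.69 with IL-1β alone, against 2.58, 2.54 and 2.94 in untreated cells. All libraries given IL-1β lay above all untreated ones, and the 2 groups given IL-1β overlapped. The mean with IL-1β was 1.82-fold that of untreated cells, a log2 difference of 0.67 (SE 0.08). PBSL plus IL-1β minus IL-1β alone was -0.12 (SE 0.08).

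DKK1, the LRP5 and LRP6 antagonist, was close to 0 everywhere. Its values were 0.072, 0.037 and 0 with PBSL and IL-1β and 0.069, 0.069 and 0 with IL-1β alone, against 0.07, 0.149 and 0.109 in untreated cells. At such values the libraries cannot show a difference, and none is given. PRKG1-AS1 is annotated on the other strand of DKK1.

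Together, 9 DKK and SFRP genes, with FRZB among them, summed to 12.7 ± 1.61 with PBSL and IL-1β and 10.04 ± 0.461 with IL-1β alone, against 14.5 ± 0.0792 in untreated cells. SFRP1 was 60.0% ± 7.37 of that sum with PBSL and IL-1β and 44.5% ± 1.09 with IL-1β alone, against 69.1% ± 2.36 in untreated cells. DKK3 held 35.1% ± 5.83 with PBSL and IL-1β and 48.5% ± 1.16 with IL-1β alone, against 18.5% ± 1.53 in untreated cells. DKK3 was thus the larger share with IL-1β alone, and SFRP1 with PBSL and IL-1β and in untreated cells.

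The target genes AXIN2 and LEF1 differed little. AXIN2, the scaffold that limits β-catenin, had 2.485, 2.93 and 2.68 with PBSL and IL-1β and 2.72, 3.18 and 3.16 with IL-1β alone, against 3.59, 3.10 and 4.15 in untreated cells. IL-1β and untreated libraries overlapped, with a log2 difference of -0.20 (SE 0.09), and only the PBSL libraries lay wholly below untreated cells, with a log2 difference of -0.32 (SE 0.09). LEF1, a transcription factor that joins β-catenin, had 3.68, 2.91 and 3.12 with PBSL and IL-1β and 3.86, 3.65 and 3.60 with IL-1β alone, against 3.55, 4.03 and 4.39 in untreated cells. All 3 groups of LEF1 overlapped, with log2 differences of -0.08 (SE 0.09) for IL-1β minus untreated and -0.15 (SE 0.09) for PBSL plus IL-1β minus IL-1β alone. LEF1-AS1 and WNT5A-AS1 are annotated on the other strand of their genes, and values for them were not used here.

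**Figure D2:**
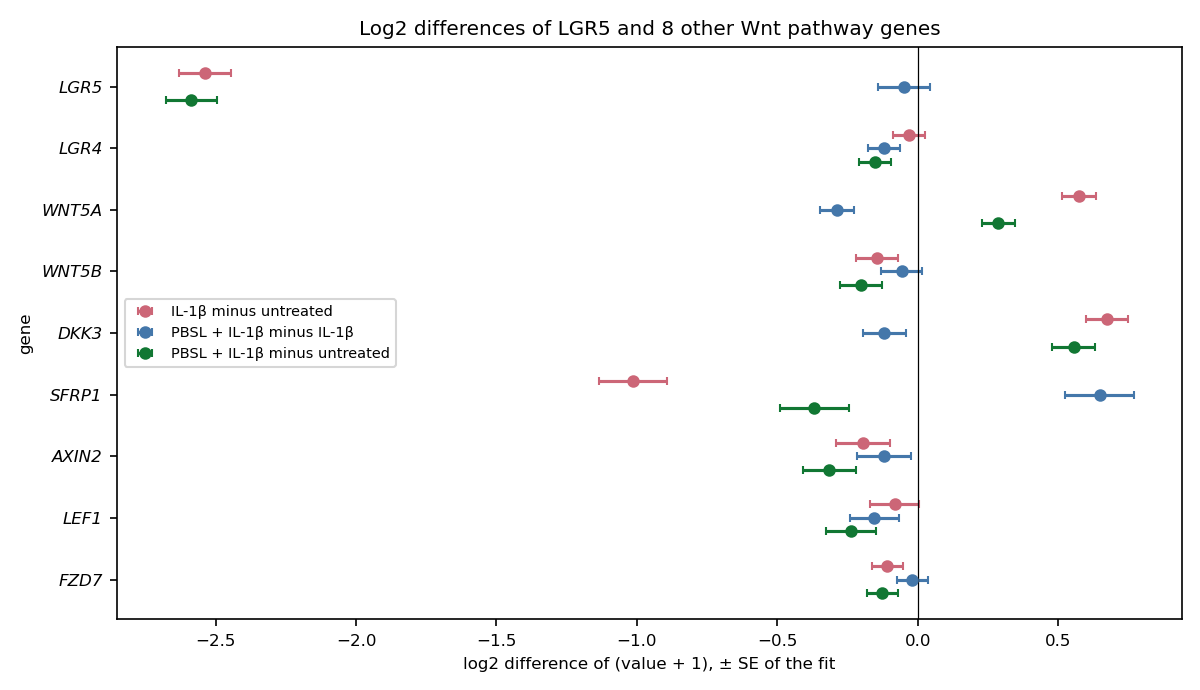
Fitted log2 difference of (value + 1) for LGR5 and 8 other Wnt pathway genes in the 3 comparisons, with bars of ± 1 SE. LGR5 is far below 0 in both comparisons with untreated cells (-2.54 and -2.59) and near 0 between PBSL plus IL-1β and IL-1β alone (-0.05), while SFRP1 and WNT5A have opposite signs for IL-1β and for PBSL.

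Counted over the 9 genes in the fit, limma called 2 higher (WNT5A and DKK3) and 2 lower (LGR5 and SFRP1) for IL-1β minus untreated and left 5 uncalled, where 32.1% of all tested genes were called (16.2% higher and 16% lower). For PBSL plus IL-1β minus IL-1β alone, SFRP1 was called higher and WNT5A lower and 7 were uncalled, where 22.5% of all tested genes were called (11.5% higher and 11% lower). For PBSL plus IL-1β minus untreated, 2 were called higher and 6 lower, where 41.6% of all tested genes were called (22.3% higher and 19.3% lower). Of the 6 lower calls in that comparison, the call was kept for LGR5 in all 12 alternatives tried, for AXIN2 in 9, for LGR4 and SFRP1 in 5 each, for WNT5B in 4 and for LEF1 in 3. Leaving out any 1 untreated library ended the calls of LGR4, WNT5B and SFRP1, untreated replicate 3 also that of AXIN2, and untreated replicate 2 or 3 that of LEF1. Leaving out PBSL plus IL-1β replicate 1 ended the calls of SFRP1 and AXIN2, replicate 2 those of LGR4 and LEF1, and replicate 3 those of WNT5B, SFRP1 and LEF1. The log2 difference itself moved by over 1.5 times for SFRP1 without replicate 1 (-0.21), LGR4 without replicate 2 (-0.10) and WNT5B without replicate 3 (-0.11), while that of SFRP1 without replicate 3 was still -0.37. Of the 9 genes tested, 2 lay wholly above and 4 wholly below untreated cells with IL-1β, where 52.8% of the tested genes did not overlap (25.7% above and 27.1% below). Since the genes were picked with these results known, nothing is read from these counts or from the calls. For the same reason a call kept in the alternatives, as for LGR5 in all 12, is no support. Between PBSL plus IL-1β and IL-1β alone, SFRP1 lay wholly above and WNT5A and LGR4 wholly below (41.8% of tested genes did not overlap, 21.7% above and 20.1% below). Between PBSL plus IL-1β and untreated cells, 2 lay wholly above and 6 wholly below (48.2% of tested genes did not overlap, 26% above and 22.1% below). The 3 comparisons share libraries, each group being used in 2 of them.

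The genes closest to LGR5 in profile were CRYGS, BMP4, CTGF, NANOS1 and PDE5A, in this order. Likeness was the root-mean-square difference from LGR5 over the 9 libraries, in log2(value + 1) relative to each gene's untreated mean, and it ran from 0.41 for CRYGS to 0.56 for PDE5A. SFRP1, the nearest of the other Wnt genes described above, was at 1.56. CRYGS, a lens crystallin gene, had 2.302, 1.30 and 2.09 with PBSL and IL-1β and 2.92, 2.31 and 1.92 with IL-1β alone, against 11.7, 11.2 and 15.2 in untreated cells. BMP4, a bone morphogenetic protein, averaged 8.01 ± 2.12 with PBSL and IL-1β and 8.24 ± 0.844 with IL-1β alone, against 38.1 ± 2.5 in untreated cells. CTGF, the matricellular protein gene now named CCN2, averaged 10.8 ± 1.51 with PBSL and IL-1β and 16.3 ± 0.579 with IL-1β alone, against 58.9 ± 3.52 in untreated cells. All 5 were chosen for a profile like that of LGR5, so these values describe the choice.

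**Figure D3:**
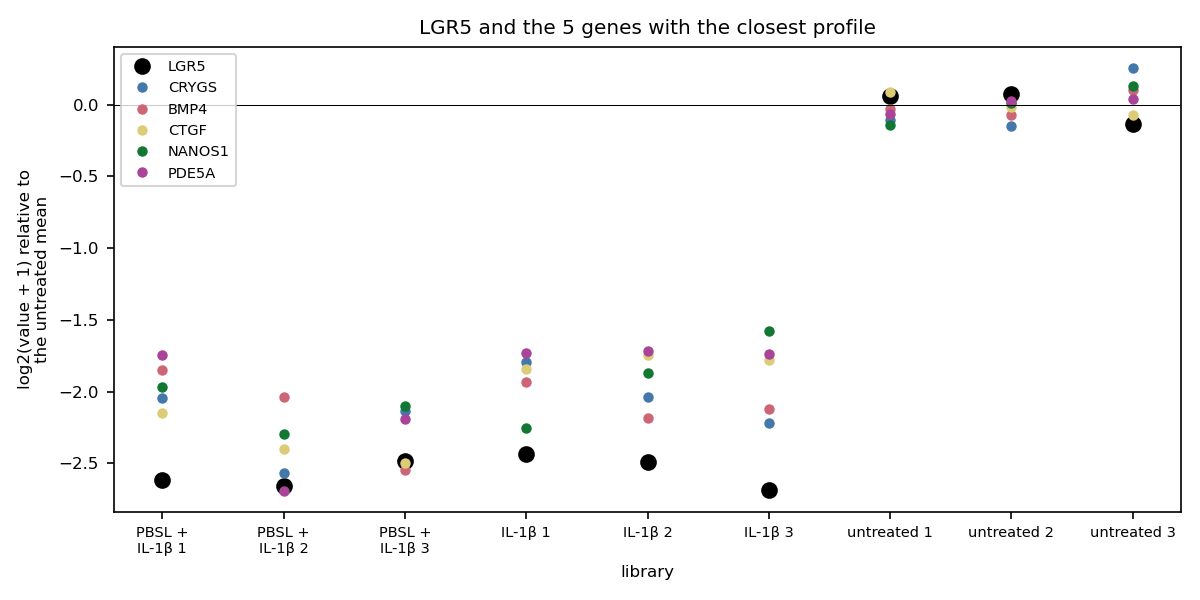
Value of LGR5 (large black points) and of the 5 genes closest to it in profile, as log2(value + 1) relative to each gene's untreated mean, in each of the 9 libraries. In the libraries given IL-1β all 6 genes lie well below 0, and LGR5 is the lowest in most of them.

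The wider pathway was read from a list of 106 other Wnt genes, of which 104 were in the table and 69 passed the filter and were tested. This list, too, was drawn up with earlier results of these data known. Its counts, and the p-values of its genes here and below, are therefore a description and not an independent test of the pathway. With IL-1β against untreated cells, 13 of the 69 rose and 17 fell, or 43.5% called, where 32.1% of all tested genes were called. The median log2 difference was -0.01 over the list and -0.00491 over all tested genes, and the median size without sign was 0.17 over the list and 0.14 over all. With PBSL plus IL-1β against IL-1β alone, 5 rose and 10 fell, or 21.7%, where 22.5% of all tested genes were called, and with PBSL plus IL-1β against untreated cells 11 rose and 15 fell, or 37.7%, where 41.6% were called. RSPO3 and NKD2 passed the filter only through the groups in which they are high, so they had to differ. Without these 2 genes, a count chosen after seeing the data, 12 of 67 rose and 16 fell with IL-1β (41.8%), and 10 rose and 14 fell with PBSL plus IL-1β against untreated cells (35.8%). TCF7L1, which reached the filter only with the untreated libraries, where it is high, is still among the genes that fell in both. The PBSL count against IL-1β alone moved with single libraries, to 25 without PBSL plus IL-1β replicate 1, 6 without PBSL plus IL-1β replicate 2, 8 without PBSL plus IL-1β replicate 3, 7 without IL-1β replicate 1, 8 without IL-1β replicate 2 and 7 without IL-1β replicate 3.

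**Figure D4:**
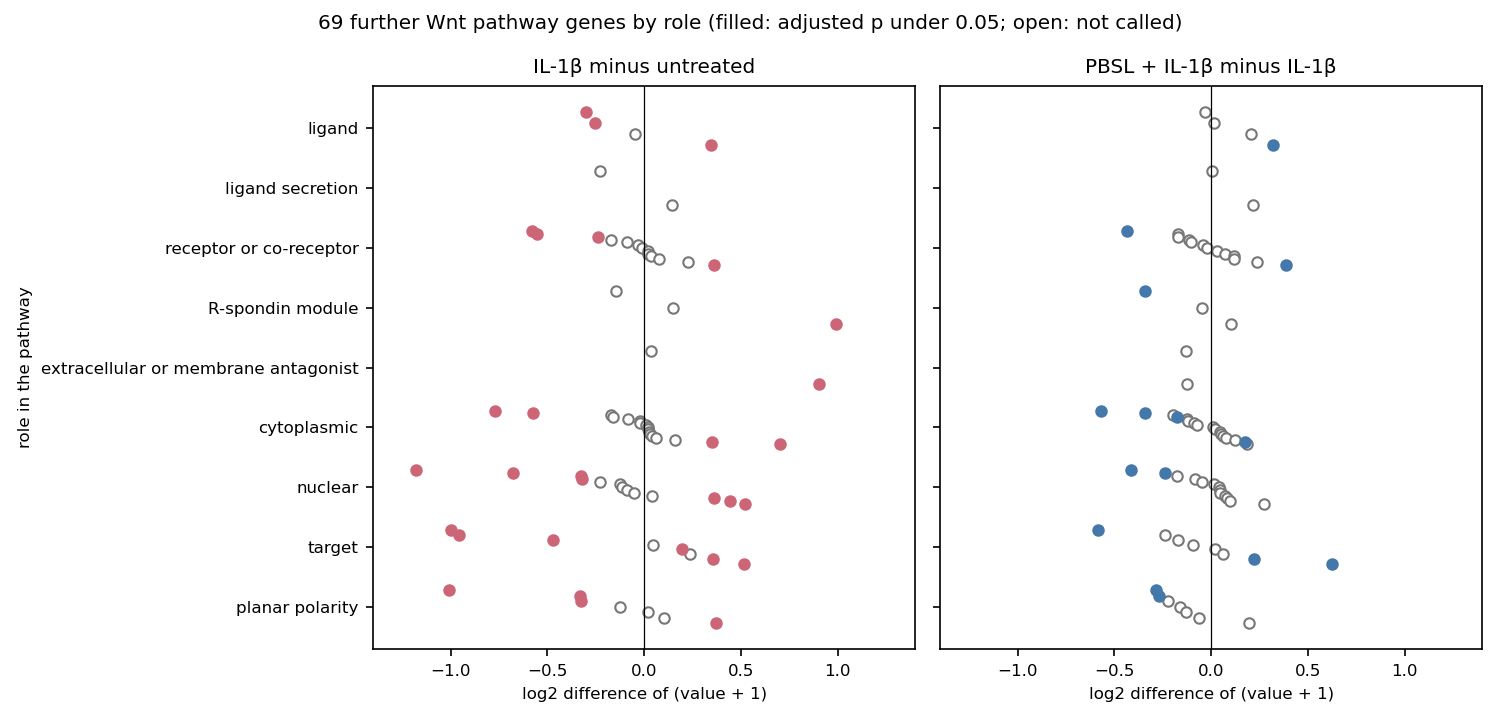
Fitted log2 difference of (value + 1) for 69 further Wnt pathway genes, grouped by role, for IL-1β minus untreated (left) and PBSL plus IL-1β minus IL-1β alone (right). Each point is a gene, filled where limma's adjusted p is under 0.05. For IL-1β, 13 filled points lie above 0 and 17 below, and for PBSL 5 lie above and 10 below.

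Around LGR5 in the R-spondin module, RSPO3, one of its ligands, was below 1 in untreated cells and passed the filter only through the groups given IL-1β, so no test is given for it. It had 1.77, 1.61 and 2.26 with PBSL and IL-1β and 1.99, 1.97 and 1.92 with IL-1β alone, against 0.53, 0.506 and 0.436 in untreated cells (IL-1β minus untreated, log2 difference 0.99, SE 0.09, and 1.80 with a pseudocount of 0.1). RSPO4 was lower with PBSL than with IL-1β alone (log2 difference -0.34, adjusted p = 0.0437 by limma). That call was lost in 7 of 12 alternatives, without IL-1β replicate 1 or 3 or PBSL plus IL-1β replicate 2 or 3 among them. Over all 12 alternatives the limma adjusted p ran from 0.0124 to 0.168. RSPO1 and RSPO2 were at most 0.026 and 0.131 in any library. ZNRF3, the ligase that R-spondins and LGR receptors oppose, averaged 2.48 ± 0.217 with PBSL and IL-1β and 2.25 ± 0.312 with IL-1β alone, against 2.59 ± 0.337 in untreated cells, and was not called in any of the 3 comparisons. RNF43, its partner, stayed between 0.589 and 1.05 and was below the filter.

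Among the nuclear proteins, TCF7, a TCF family factor and itself a Wnt target in several tissues, fell the most. It had 5.78, 6.13 and 6.43 with PBSL and IL-1β and 6.35, 6.77 and 6.45 with IL-1β alone, against 15.2, 15.6 and 17.4 in untreated cells. Every library given IL-1β was below every untreated one (IL-1β minus untreated, log2 difference -1.18, SE 0.07, adjusted p = 1.19e-07 by limma), and PBSL against IL-1β alone was not called (log2 difference -0.08, adjusted p = 0.422 by limma). TCF7L2 was not called in any of the 3 comparisons, at 4.24, 4.01 and 4.44 on average with PBSL and IL-1β, IL-1β alone and no treatment. TCF7L1, near the filter value of 1, averaged 0.950 ± 0.112, 0.929 ± 0.105 and 1.42 ± 0.140 in the same order. It reached the filter only with the untreated libraries, the only group with all 3 at 1 or more. Its lower calls in both comparisons with untreated cells are therefore no support, and they were not followed through the alternatives. TLE4, a corepressor of TCF proteins, fell to 14.4 ± 1.25 with PBSL and IL-1β and 19.5 ± 1.04 with IL-1β alone, against 31.8 ± 2.40 in untreated cells. Its fall was called for IL-1β (log2 difference -0.68, adjusted p = 2.88e-05 by limma) and again for PBSL against IL-1β alone (log2 difference -0.41, adjusted p = 0.00456 by limma). TLE1, TLE3 and BCL9L, a β-catenin cofactor, rose with IL-1β, by log2 differences of 0.36, 0.52 and 0.44. Of 13 nuclear genes tested, 3 rose and 4 fell with IL-1β, TCF7L1 among these 4. With PBSL against IL-1β alone 2 fell, where 32.1% and 22.5% of all tested genes were called in these comparisons.

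Target genes moved in both directions. TNFRSF19, a Wnt-responsive receptor also known as TROY, had 7.10, 5.26 and 5.94 with PBSL and IL-1β, and it fell to 7.08, 7.04 and 7.95 with IL-1β, against 15.5, 14.7 and 16.8 in untreated cells (log2 difference -1, SE 0.09, adjusted p = 6.89e-06 by limma). CCND1, which encodes cyclin D1, had 40.9, 72.0 and 57.5 with PBSL and IL-1β and 36.1, 36.4 and 34.2 with IL-1β alone, against 70.2, 70.5 and 69.4 in untreated cells. It fell with IL-1β (log2 difference -0.96, adjusted p = 0.000313 by limma) and rose with PBSL against IL-1β alone (log2 difference 0.62, adjusted p = 0.0118 by limma), with PBSL plus IL-1β replicate 1 close to IL-1β alone. CD44, a hyaluronan receptor, rose with IL-1β (log2 difference 0.52, adjusted p = 5.86e-05 by limma). CCN4, also called WISP1, fell with PBSL against IL-1β alone, to 9.07 ± 2.51 against 13.8 ± 0.698 (log2 difference -0.58, adjusted p = 0.0124 by limma). Of 8 target genes tested, 3 rose and 3 fell with IL-1β, and 2 rose and 1 fell with PBSL against IL-1β alone, where 32.1% and 22.5% of all tested genes were called.

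Among feedback regulators, NKD1 and NKD2, paralogous Dishevelled-binding antagonists, differed in direction with IL-1β. NKD1 had 1.055, 0.939 and 0.986 with PBSL and IL-1β and 1.855, 1.995 and 2.03 with IL-1β alone, against 1.085, 1.185 and 1.742 in untreated cells. It rose with IL-1β (log2 difference 0.35, adjusted p = 0.0211 by limma) and fell with PBSL against IL-1β alone (log2 difference -0.57, adjusted p = 0.00451 by limma, and -0.91 with a pseudocount of 0.1). The call with IL-1β was not followed through the alternatives, and untreated replicate 3 lay close to the IL-1β libraries. PBSL plus IL-1β minus untreated was not called for NKD1 (log2 difference -0.22, adjusted p = 0.107 by limma). NKD2 had 0.385, 0.249 and 0.117 with PBSL and IL-1β and 0.357, 0.335 and 0.6 with IL-1β alone, against 1.201, 1.28 and 1.89 in untreated cells. NKD2 passed the filter only through untreated cells, so no test is given for it, and its log2 difference for IL-1β minus untreated was -0.77 (-1.56 with a pseudocount of 0.1). NOTUM, an enzyme that inactivates Wnt proteins, was below the filter at 0.297 to 1.06, and SP5 and APCDD1 were at most 0.142 each. CTNNB1, which encodes β-catenin, averaged 112 ± 5.03 with PBSL and IL-1β and 109 ± 1.79 with IL-1β alone, against 115 ± 4.95 in untreated cells, and was not called.

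**Figure D5:**
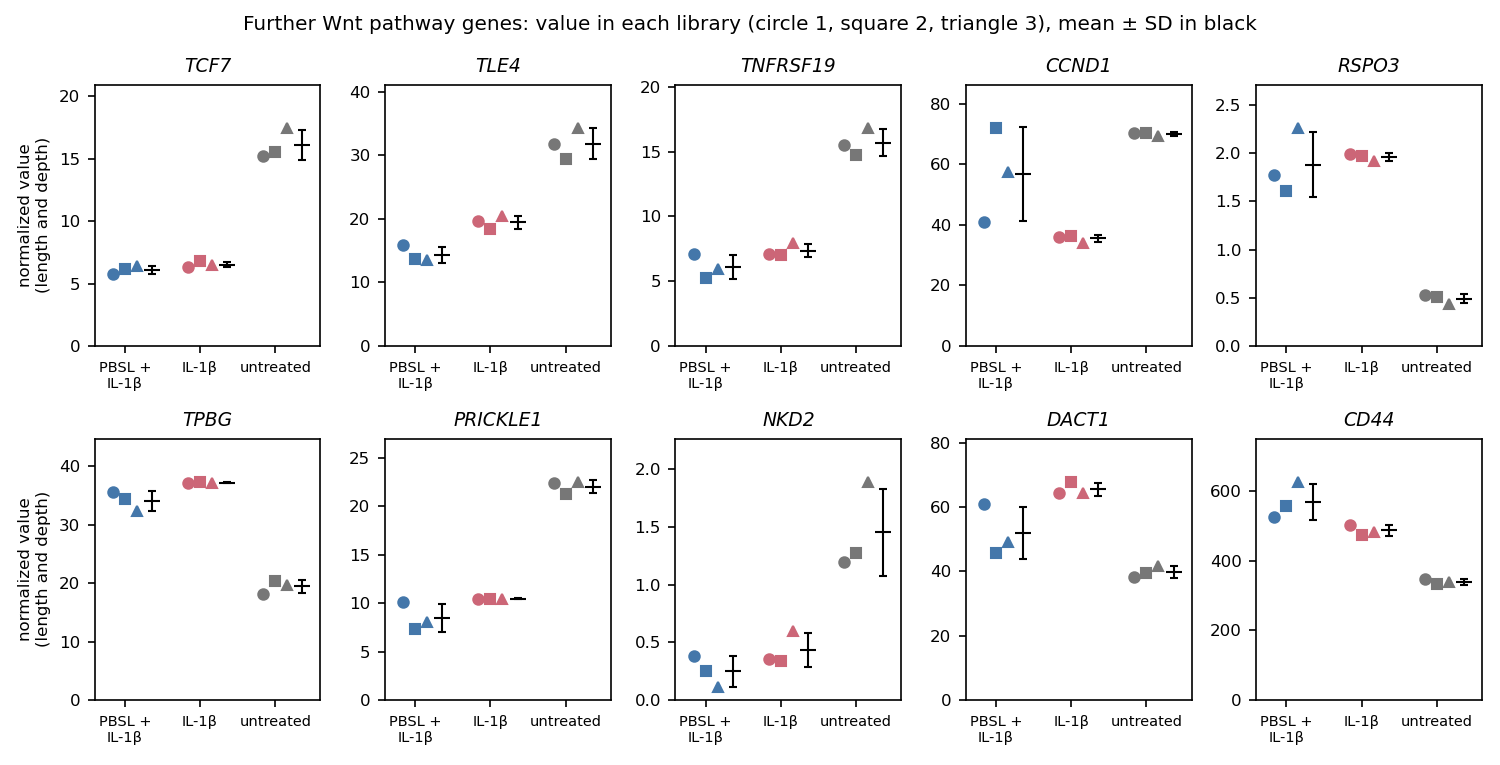
Normalized expression value (vertical axes, starting at 0, a different scale in each panel) of 10 further Wnt pathway genes in each library of the 3 groups. Symbols mark replicates 1, 2 and 3, and black bars give the mean ± SD. TCF7, TNFRSF19 and PRICKLE1 are low in both groups given IL-1β, RSPO3 and TPBG are high in both, and CCND1 with PBSL and IL-1β is spread from 40.9 to 72.0.

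Of 13 receptors and co-receptors tested, 1 rose and 3 fell with IL-1β, about the share over all tested genes, of which 32.1% were called. FZD1 fell to 4.5 ± 0.35, against 7.22 ± 0.522 in untreated cells (log2 difference -0.58, adjusted p = 0.00109 by limma). FZD8 rose with PBSL, to 21.5 ± 2.58 against 16.1 ± 0.685 with IL-1β alone (log2 difference 0.39, adjusted p = 0.00988 by limma), and PTK7, a pseudokinase receptor of the planar polarity branch, fell to 25.4 ± 3.17 against 34.6 ± 0.633 (log2 difference -0.44, adjusted p = 0.00495 by limma). LRP6 averaged 8.27 with PBSL and IL-1β and 8.96 with IL-1β alone, against 8.41 in untreated cells, and was not called in any comparison. LRP5 averaged 6.99 with PBSL and IL-1β and 7.66 with IL-1β alone, against 9.24 in untreated cells. It was called lower than in untreated cells with IL-1β (adjusted p = 0.0345 by limma) and with PBSL plus IL-1β (adjusted p = 0.0034 by limma). Neither call of LRP5 was followed through the alternatives. Among further ligands, WNT7B averaged 15.1 ± 0.628 with PBSL and IL-1β and 15.0 ± 0.525 with IL-1β alone, against 11.6 ± 0.648 in untreated cells. WNT9A was higher with PBSL than with IL-1β alone (log2 difference 0.32, adjusted p = 0.0165 by limma), a call lost without IL-1β replicate 1, IL-1β replicate 3 or PBSL plus IL-1β replicate 2 (limma adjusted p = 0.052 without the first, 0.0627 without the second and 0.059 without the third, with 0.0123 the lowest of all alternatives).

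TPBG, a membrane protein that restrains β-catenin signalling, rose to 37.2 ± 0.113 with IL-1β, against 19.5 ± 1.14 in untreated cells (log2 difference 0.90, adjusted p = 2.61e-07 by limma). PRICKLE1, a planar polarity protein, fell to 10.5, 10.4 and 10.5 with IL-1β, against 22.3, 21.2 and 22.5 in untreated cells (log2 difference -1.01, adjusted p = 4.81e-06 by limma). DACT1, a Dishevelled-binding protein, rose with IL-1β by a log2 difference of 0.70 and its paralogue DACT3 fell by 0.58 on the log2 scale. With PBSL against IL-1β alone, DACT1 fell (log2 difference -0.34), as did PRICKLE1 (-0.28) and PRICKLE2 (-0.27), while CD44 (0.22) and DVL2, a Dishevelled protein (0.17), rose. These 5 calls were lost in 4 alternatives for DACT1, 7 for PRICKLE1, 3 for PRICKLE2, 7 for CD44 and 9 for DVL2. Leaving out PBSL plus IL-1β replicate 2 or IL-1β replicate 2 ended all 5 calls. Leaving out PBSL plus IL-1β replicate 3 or IL-1β replicate 3 ended all but that of PRICKLE2, and leaving out IL-1β replicate 1 ended all but that of DACT1. The limma adjusted p over the alternatives ran from 0.000235 to 0.0711 for DACT1, 0.000818 to 0.141 for PRICKLE1, 0.00751 to 0.0701 for PRICKLE2, 0.00393 to 0.1 for CD44 and 0.0251 to 0.151 for DVL2. Markers of other cell types moved with these results. Of 6 epithelial markers, summed to 57.9 to 77.2 with PBSL and IL-1β and 76.9 to 78.5 with IL-1β alone, against 138 to 156 in untreated cells, KRT8 and KRT18 fell and CLDN4 rose with IL-1β while EPCAM and CDH1 stayed below 1, and KRT19 was 7.95 in untreated replicate 1 and below 1 in the other libraries. Of 5 macrophage markers, summed to 85.3 to 90.6 with PBSL and IL-1β and 99.7 to 103 with IL-1β alone, against 71.6 to 79.1 in untreated cells, CD68 and CSF1R rose with IL-1β, FCER1G passed the filter only through the groups given IL-1β, and CD14 and AIF1 stayed below 1. Of 6 mesenchymal markers, summed to 5458 to 6146 with PBSL and IL-1β and 6945 to 7041 with IL-1β alone, against 5882 to 6182 in untreated cells, FN1 and COL1A1 rose and PDGFRB fell with IL-1β. With PBSL against IL-1β alone, COL1A1, COL1A2, COL3A1, FN1 and PDGFRB fell, with log2 differences of -0.73, -0.79, -0.82, -0.52 and -0.61, and VIM was not called. In each gene that fell, PBSL plus IL-1β replicate 1 was the closest to IL-1β alone. COL1A1, for example, had 1171 in replicate 1, against 845 in replicate 2 and 853 in replicate 3. The 8 chondrocyte markers summed to 12.6 to 14.3 with PBSL and IL-1β and 14.0 to 15.4 with IL-1β alone, against 18.5 to 20.6 in untreated cells. SOX9 and COL11A1 fell with IL-1β. HAPLN1 and ACAN passed the filter only through the groups where they are high. HAPLN1 averaged 0.369 ± 0.279 with PBSL and IL-1β and 0.518 ± 0.122 with IL-1β alone, against 2.27 ± 0.577 in untreated cells, and ACAN, in the other direction, 1.80 ± 0.354 with PBSL and IL-1β and 1.42 ± 0.201 with IL-1β alone, against 0.501 ± 0.0503 in untreated cells. The part of these markers in the Wnt gene results was not tested.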

How the data were processed

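The table holds 19389 genes by 9 libraries from directional mRNA sequencing. Per the submitters' processing notes, Trim Galore, STAR and HTSeq were used with hg38, without versions. The authors deposited normalized signal values. Their unit is not given in the sources used here, and scaling for length and depth was inferred from the values.

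The 10 genes and all lists were chosen with earlier results of these data known. A limma model (3.58.1, R 4.3.3) with a variance trend was applied to log2(value + 1). It had 1 mean for each group, leaving 6 residual degrees of freedom, and ran over the 11924 genes with at least 1 in at least 3 libraries. Calls were 2-sided at a Benjamini-Hochberg adjusted p under 0.05. An exact test of 3 against 3 libraries cannot go below 0.1. Alternatives were another pseudocount, no filter, median-ratio rescaling, the 2 groups alone, a replicate block, library weights and each library left out. The procedure was tested on simulated data with independent normal noise for each gene. Outlying libraries and shared batches were not simulated, so how it performs with them was not tested. From the list of 106 Wnt genes, up to 8 called genes per direction and comparison, by size, were eligible for naming, beside fixed feedback and transducer genes given by level. Of 27 symbols turned into dates, 20 were tested without a name, and 16 rows repeat a symbol. Positions come from GENCODE 29 and promoters from RefSeq. The labels give no batch. Tables were made with Python 3.11.15, pandas 2.3.3 and matplotlib 3.10.9.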

Additional observations from a re-analysis of the deposited data

How the results depend on the processing

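The Wnt list count for PBSL plus IL-1β minus IL-1β alone depended most on the processing, with 15 genes called, 9 when only the 2 groups compared were fitted, and 6 to 25 when 1 library was left out. Leaving out 1 library gave 23 to 29 for IL-1β minus untreated (30 with all) and 24 to 29 for PBSL plus IL-1β minus untreated (26 with all). With a replicate block the 3 counts were 30, 12 and 25. Same-numbered libraries deviated from their group means with correlations of -0.225 to 0.0681, and differently numbered ones with -0.111 to 0.196. The labels do not say if the numbers pair libraries. So few libraries cannot settle it, because a weak shared effect would leave little trace in these correlations. No log2 difference turned its sign where it was called. Of the alternatives for named list genes, 500 kept the call and 40 lost it, all 40 in PBSL plus IL-1β minus IL-1β alone. The 500 hold all 12 alternatives of RSPO3 and of NKD2 in each comparison with untreated cells. These genes had to differ there, so their kept calls are no support. A pseudocount of 0.1 enlarged the differences of genes near 1, LGR5 to -3.17, DKK3 to 0.84, RSPO3 to 1.80 and NKD2 to -1.56 for IL-1β minus untreated, RSPO3 to 1.73 and NKD2 to -2.20 for PBSL plus IL-1β minus untreated, and NKD1 to -0.91 for PBSL plus IL-1β minus IL-1β alone. Without RSPO3 and NKD2, left out after seeing the data, the list counts were 28, 15 and 24, with TCF7L1 still in the list. Rescaling by median ratios gave list counts of 30, 14 and 26. The values carry no read counts, so the precision of low genes such as DKK1 is unknown.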
